A study of Mus musculus with 14 samples.

Results

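The mRNA of 10 activity-dependent immediate early genes was measured by RNA sequencing in the brains of 14 female mice. The genes were taken by name from a table of 43346 genes (Fos, Fosb, Junb, Egr1, Egr2, Egr4, Arc, Npas4, Nr4a1 and Ier2), and all 10 were found, each as a single row with no other gene of the table overlapping it. APP/PS1 mice carry 2 transgenes with familial Alzheimer's disease mutations, mutant human APP and mutant human PS1, on a C57BL/6;SJL-Tg background, and NTG mice are wild type, non-transgenic mice of the same strain label. The groups were NTG mice given vehicle (n = 4, numbered 7 to 10), APP/PS1 mice given vehicle (n = 5, 16 to 20) and APP/PS1 mice given CP2 (n = 5, 21 to 25). CP2, a tricyclic pyrone, is a partial inhibitor of complex I of the mitochondrial respiratory chain. It was given at 25 mg/kg/day in drinking water with 0.1% PEG from 9 months of age, vehicle mice drank water with PEG alone, and all mice were 23 months old. The tissue was a cross-section of frozen brain that held hippocampus and cortex, and NTG mice given CP2 were not analysed here.

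Immediate early genes are transcribed within minutes of a stimulus, without new protein synthesis. In neurons, synaptic input and calcium entry act through kinases and through factors such as CREB and SRF, which are already bound near these genes, and the mRNAs are short-lived, so their level is widely used as a trace of recent neuronal activity. Most of the genes encode transcription factors. Arc is the exception among the best known, since it encodes a synaptic protein that takes part in the removal of AMPA receptors from the membrane.

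The sequence just upstream of 4 of the genes is shown as background. All 4 hold the CRE half-site given below, and the part of such motifs in the levels of the genes was not tested. RefSeq promoters on GRCm38.p6, from 250 bases before to 50 bases after a start site, were matched for 7 of the 10 genes (all but Egr1, Arc and Ier2). Where a gene had several starts, the most upstream one was taken. The sequences below run 5′ to 3′ up to the base before the start, with the CRE half-site TGACG, on either strand, and the TATA box TATAAA in capitals. Fos is at chr12:85473750-85473889 on the plus strand, Npas4 at chr19:4989972-4990161 on the minus strand, Fosb at chr7:19310046-19310165 on the minus strand and Nr4a1 at chr15:101266726-101266845 on the plus strand, all upstream of the gene as the count table places it.
Fos: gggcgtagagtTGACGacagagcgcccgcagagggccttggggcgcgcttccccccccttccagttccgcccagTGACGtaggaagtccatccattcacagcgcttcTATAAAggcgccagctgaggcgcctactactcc
Npas4: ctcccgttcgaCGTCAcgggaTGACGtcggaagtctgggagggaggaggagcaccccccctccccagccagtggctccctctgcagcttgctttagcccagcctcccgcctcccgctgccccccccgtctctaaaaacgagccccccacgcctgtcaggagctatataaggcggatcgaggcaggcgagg
Fosb: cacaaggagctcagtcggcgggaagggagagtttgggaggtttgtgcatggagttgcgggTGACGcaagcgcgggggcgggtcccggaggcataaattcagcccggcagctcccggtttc
Nr4a1: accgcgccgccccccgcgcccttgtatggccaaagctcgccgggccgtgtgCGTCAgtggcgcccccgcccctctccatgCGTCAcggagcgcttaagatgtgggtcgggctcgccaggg

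Searched on both strands of the whole 300-base window, the CRE half-site was present in 6 of the 7 promoters (85.7%; Egr2 was without it) and in 20.8% of 32851 RefSeq promoters. The full CRE, TGACGTCA, which contains the half-site, was in none of the 7 and in 1.79% of all. The letters TATAAA were in Fos, 33 to 28 bases before the start, and in Junb, at bases 1 to 6 from the start onwards (28.6%), and in 13.6% of all promoters, and the EGR site GCGNGGGCG was in Fosb and Nr4a1 (28.6%) and in 5.55% of all. The CArG box, the AP-1 site TGANTCA and the NBRE AAAGGTCA were in 0 of the 7 windows and in 1.63%, 7.81% and 1.51% of all promoters. A match describes the letters in these windows and is not a measurement of binding. Sequence further upstream, other start sites and the promoters of Egr1, Arc and Ier2 were not searched, so a motif absent here may lie elsewhere.

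Total counts per library ranged from 70548781 to 106235625. The lowest count of any member was 69 reads, for Egr2 in mouse 19, and each of the other genes had at least 221 reads in every mouse. Counting error alone was 12.04% for that lowest value and at most 6.73% for the other genes. Among the vehicle-treated APP/PS1 mice, 1 stood apart in its tissue. In mouse 16 the summed level of 8 striatum markers was 1564 CPM (read counts scaled to library size with TMM factors) and ranged from 106.3 to 209.7 CPM in the other mice, while its 5 dentate gyrus markers summed to 24.2 CPM against 67.0 to 137 CPM elsewhere. Hypothalamus markers summed to 51.2 and 99.96 CPM in CP2-treated mice 22 and 23 and to at most 23.4 CPM elsewhere. No dentate gyrus, hippocampal CA, cortical layer or neuronal marker was at 0 in any library. At this depth that does not by itself show that hippocampus and cortex were present. Because mouse 16 stood apart, results on the APP/PS1 mice are given with and without it. All tests were edgeR quasi-likelihood tests on counts, with Benjamini-Hochberg adjustment over all genes tested, and a 95% interval is given for the log2 fold change. In bulk tissue, fewer cells of a type and less mRNA per cell cannot be told apart.

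Per length of transcript, the genes fell into levels that differed by more than an order of magnitude. On the deposited RPKM scale, Arc was highest (26.2 ± 20.4, SD over 14 mice), followed by Egr1 (20.5 ± 11.4), Junb (18.2 ± 8.31) and Nr4a1 (16.6 ± 11.0). Egr4 (7.31 ± 3.74) and Fos (6.61 ± 4.19) were in the middle. Ier2 (3.40 ± 1.32), Npas4 (2.63 ± 2.01), Fosb (2.04 ± 0.929) and Egr2 (0.948 ± 0.883) were lowest. Within single mice, only 3 of the 9 steps in this order held in all 14 animals, namely Nr4a1 above Egr4, Fos above Ier2 and Fosb above Egr2. At the other steps the higher gene on average was the higher one in 8 to 11 of 14 mice.

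The 10 genes varied widely between mice of one group, by up to 10.7-fold (Egr2 in APP/PS1 mice), and they did so together. Arc was 50.6, 190, 222 and 79.1 CPM in NTG mice 7 to 10. In vehicle-treated APP/PS1 mice 16 to 20, Arc was 204, 48.9, 35.5, 23.8 and 67.3 CPM. In CP2-treated mice 21 to 25 it was 48.8, 79.6, 38.2, 52.8 and 236 CPM. Mice 8, 9, 16 and 25 were thus the high ones, 1 or 2 in each group, and the lowest of these 4 values was 2.38 times the next.

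Egr1, a zinc finger transcription factor, had the same 4 mice at the top. It was 76.0, 197, 180 and 75.8 CPM in NTG mice, 213, 95.3, 48.9, 31.8 and 91.4 CPM in APP/PS1 mice, and 63.2, 93.7, 85.7, 92.1 and 226 CPM in CP2-treated mice. Its relative Egr2 had the widest range of the 10 genes, 15.4-fold from 0.854 CPM in mouse 19 to 13.1 CPM in mouse 25. Egr4 ranged 5.03-fold, from 7.70 CPM in mouse 19 to 38.8 CPM in mouse 16.

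Npas4, a bHLH-PAS transcription factor that responds selectively to calcium entry in neurons, was 4.65, 20.8, 21.4 and 7.29 CPM in NTG mice. It was 24.5, 4.83, 3.19, 2.74 and 7.09 CPM in APP/PS1 mice and 8.54, 10.3, 3.73, 5.37 and 23.5 CPM in CP2-treated mice. Nr4a1, an orphan nuclear receptor, was 36.4, 92.0, 93.4 and 41.3 CPM in NTG mice, 87.5, 35.1, 20.1, 14.4 and 39.3 CPM in APP/PS1 mice, and 22.03, 43.0, 25.3, 32.3 and 122 CPM in CP2-treated mice. Both genes left a gap of about the same size below the 4 high mice, with the lowest of them 2.02 times the next mouse for Npas4 and 2.04 times for Nr4a1.

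Fos, Fosb and Junb encode subunits of the AP-1 transcription factor. Fos was 12.03, 34.0, 29.4 and 13.6 CPM in NTG mice, 25.8, 12.7, 11.5, 8.59 and 11.1 CPM in APP/PS1 mice, and 12.5, 21.1, 11.2, 11.0 and 50.8 CPM in CP2-treated mice. The gap was narrower here, since the next mouse, CP2-treated mouse 22, was at 21.1 CPM and the lowest of the 4 at 25.8 CPM. Fosb ranged from 5.43 to 17.96 CPM and Junb from 21.9 to 79.8 CPM, with mouse 25 highest in both. Ier2, a short nuclear protein induced by growth factors and activity, had the smallest pooled SD within groups, though not within the CP2-treated group. It was 5.90, 9.64, 8.52 and 6.58 CPM in NTG mice, 7.09, 4.09, 4.91, 3.45 and 4.89 CPM in APP/PS1 mice, and 4.67, 7.41, 3.70, 5.22 and 12.3 CPM in CP2-treated mice.

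**Figure D1:**
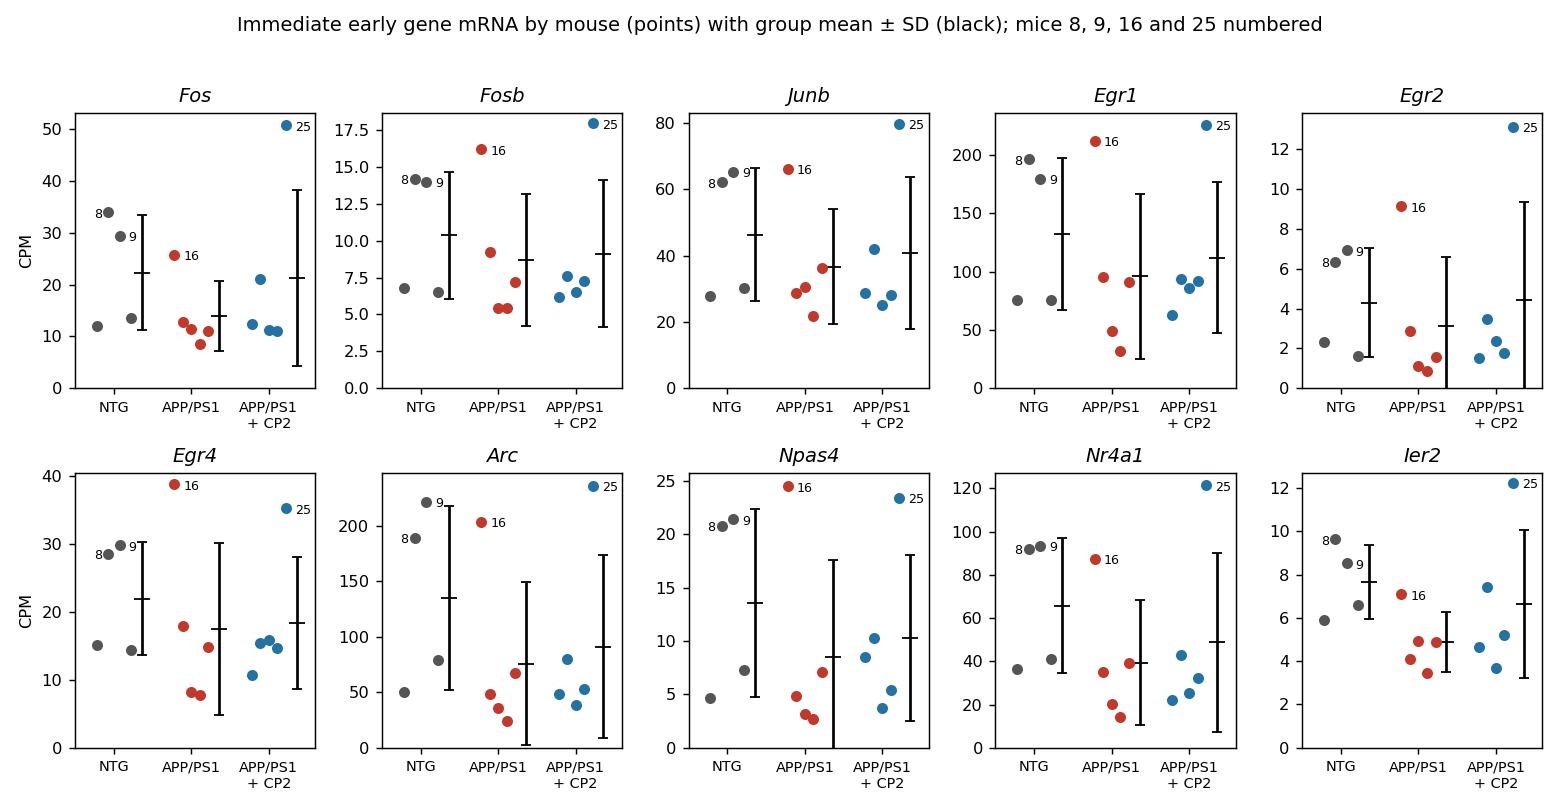
CPM (linear axis from 0) of each of the 10 genes in every mouse, with points coloured by group and the group mean ± SD in black (n = 4, 5 and 5). Mice 8, 9, 16 and 25 are numbered and are the 4 highest points for 9 of the 10 genes, Ier2 being the exception.

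Mice 8, 9, 16 and 25 were the 4 highest of 14 for 9 of the 10 genes. For Ier2, CP2-treated mouse 22 (7.41 CPM) was above mouse 16 (7.09 CPM) by a margin within counting error. Mouse 25 was the highest of all for 8 genes and mouse 16 for Egr4 and Npas4. At the other end, APP/PS1 mouse 19 was the lowest for 9 genes, and APP/PS1 mouse 18 (5.43 CPM) and mouse 19 (5.45 CPM) differed by less than counting error for Fosb.

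**Figure D2:**
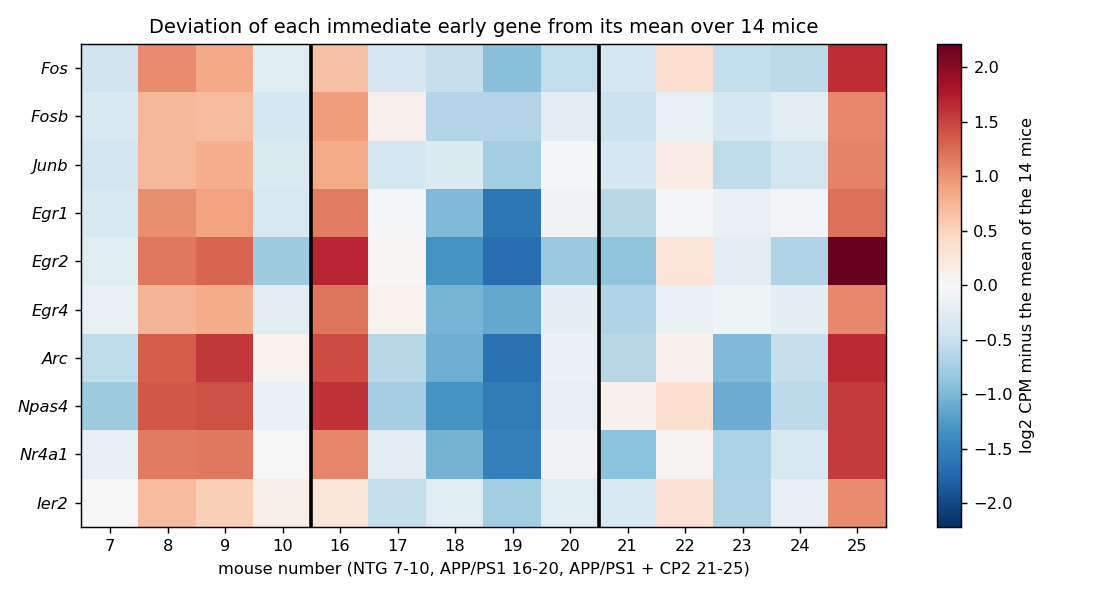
Heat map of log2 CPM minus each gene's mean over the 14 mice, with genes in rows, mice in columns and black lines between the groups. Columns 8, 9, 16 and 25 are red (above the mean) in all 10 rows, and column 19 is blue in all 10.

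The 45 pairs of genes were all positively correlated across the mice. Pearson's r of log2 CPM ranged from 0.76 (Egr4 and Ier2) to 0.98 (Egr1 and Egr4), with a median of 0.93 over 14 mice, and Spearman's rho from 0.61 (Egr4 and Ier2) to 0.99 (Fosb and Egr1). After subtraction of each group's mean the median r was also 0.93. Among the 10 mice other than 8, 9, 16 and 25, r was still above 0 for all 45 pairs but ranged from 0.21 (Fosb and Ier2) to 0.94 (Egr1 and Egr4), with a median of 0.72. These correlations describe 14 libraries that are the same for every gene, and no test was made of them.

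Measured as the SD of log2 CPM within groups, this spread was large against the rest of the transcriptome. The pooled SD was 1.23 for Egr2, 1.13 for Npas4, 1.09 for Arc, 0.93 for Nr4a1, 0.85 for Egr1, 0.78 for Fos and 0.75 for Egr4. It was 0.65 for Junb, 0.64 for Fosb and 0.50 for Ier2. The median of 16521 genes was 0.13 and their 95th percentile was 0.41, so all 10 genes were above that percentile, and 7 of them were above the 99th.

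**Figure D3:**
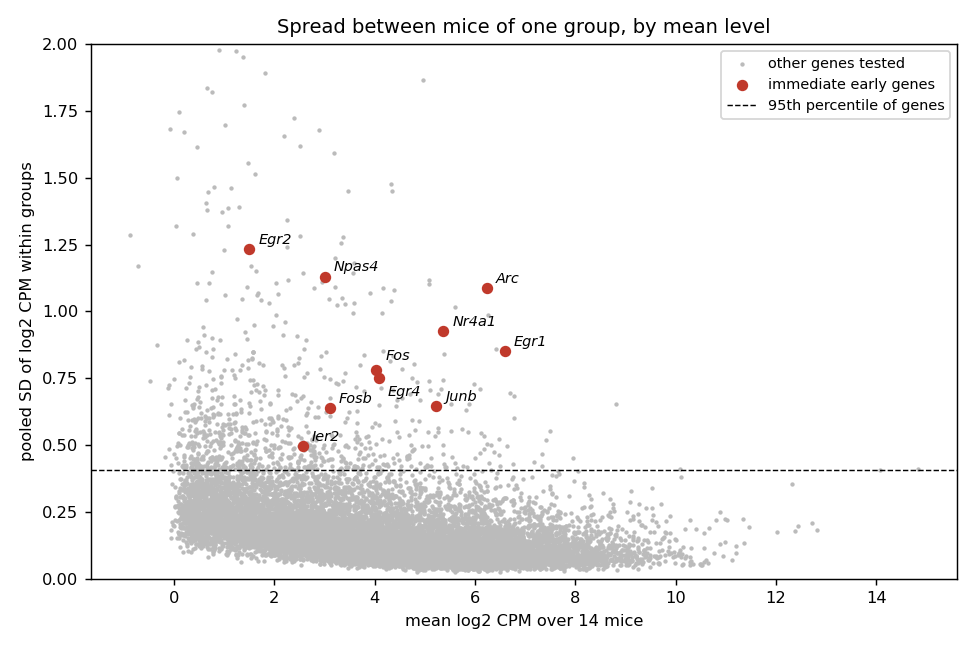
Pooled SD of log2 CPM within the 3 groups against mean log2 CPM over 14 mice, for 16521 genes (grey, 5 of which are above the top of the axis) and the 10 immediate early genes (red). The red points are above the dashed line at the 95th percentile (0.41), from Ier2 at 0.50 to Egr2 at 1.23.

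In mice 8, 9, 16 and 25, striatum markers and ribosomal RNA-like reads did not share one direction. Only mouse 16 of the 4 had raised striatum markers, with sums of 131, 120 and 122 CPM in mice 8, 9 and 25. The 2 ribosomal RNA-like genes took 7.504% of the counts in mouse 8, 5.51% in mouse 9, 4.49% in mouse 25 and 2.40%, the lowest of all, in mouse 16. Oligodendrocyte markers summed to 5561, 5198, 4616 and 5340 CPM in mice 8, 9, 16 and 25 and to 5233 to 7550 CPM in the others, so the ranges overlapped. Across the 14 mice all 6 oligodendrocyte markers had a negative r with the mean of the members (-0.71 to -0.56, median -0.66), as did all 6 microglia markers (-0.53 to -0.29). The r of cortical layer markers was 0.05 to 0.67 (median 0.47), and that of excitatory neuron markers -0.19 to 0.75 (median 0.48). Over all genes tested the median was -0.03. Cortical layer markers summed to 277, 242, 321 and 228 CPM in mice 8, 9, 16 and 25, and to 186 to 236 CPM in the others. The part of these cell types and regions in the levels of the members was not tested. A covariate for the ribosomal RNA-like share was fitted in each comparison, and its effect is given there.

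The first comparison, of vehicle-treated APP/PS1 with NTG mice, asks how the transgenes go with expression at 23 months. All 10 genes had a mean CPM and a fitted log2 fold change below the NTG level, as did 51.2% of all genes tested for the fold change, and none passed the adjusted threshold. The 10 genes came from the same mice and moved together (median r 0.93 after subtraction of group means). Their signs and calls are therefore not 10 separate observations, here or in the later comparisons. The median log2 fold change of the 10 was -0.55, beside -0.00 over all 16417 genes tested. Ier2 was the only member with an unadjusted p under 0.05, at 4.89 ± 1.38 CPM in APP/PS1 (n = 5) and 7.66 ± 1.73 CPM in NTG mice (n = 4), a log2 fold change of -0.64 (95% interval -1.11 to -0.17, edgeR adjusted p = 0.123). Of all genes tested, 8.05% were lower at this unadjusted threshold and 1.34% at the adjusted one. By DESeq2, 1 member (again Ier2) had an adjusted p under 0.05, at 0.0401, where 3.47% of all genes were lower at that threshold. Over all alternatives that kept the mice, the adjusted p of Ier2 ranged from 0.0163 to 0.308. Sample quality weights (limma-voom) gave 7 members with an unadjusted p under 0.05, where 10.5% of all genes were lower at that threshold, and a covariate for ribosomal RNA-like reads moved the median of the 10 to -0.97 (quality weights to -0.96).

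Arc, whose point estimate was furthest from 0, was 75.9 ± 73.4 CPM in APP/PS1 and 135 ± 83.2 CPM in NTG mice, a log2 fold change of -0.83 (95% interval -2.24 to 0.58, adjusted p = 0.548). The intervals of Nr4a1 (-1.85 to 0.37 around -0.74), Npas4 (-2.21 to 0.86 around -0.67) and Fos (-1.52 to 0.18 around -0.67) also covered 0. Egr2 (-0.47), Egr1 (-0.46), Junb (-0.33), Egr4 (-0.33) and Fosb (-0.25) were closer to 0, with adjusted p from 0.689 to 0.789 by edgeR. As Egr2 was at 0.854 CPM in APP/PS1 mouse 19, it passed the filter on level only through the NTG group, with or without mouse 16. For every member the ranges of the 2 groups overlapped, while 4.11% of all genes tested were lower in APP/PS1 mice with no overlap.

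This comparison depended on single mice, in both directions. Without NTG mouse 8 the median log2 fold change of the 10 genes was -0.29, with all 10 still below 0. Of them, 1 had an unadjusted p under 0.05, where 6.56% of all genes were lower at that threshold. Without APP/PS1 mouse 16, 9 of the 10 genes had an unadjusted p under 0.05 and lower levels in APP/PS1 mice. There, 9.81% of all genes were lower at that threshold, and the median log2 fold change of the 10 was -0.99. The largest were then Arc at -1.62 (SE 0.47, adjusted p = 0.0615), Npas4 at -1.59 (SE 0.49, adjusted p = 0.0815) and Egr2 at -1.42 (SE 0.51, adjusted p = 0.13), and Fosb was the gene that missed the unadjusted threshold (-0.59, SE 0.29). Ier2 alone passed the adjusted one, at -0.81 (SE 0.17, edgeR adjusted p = 0.0157), where 2.4% of all genes did so in this direction.

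**Figure D4:**
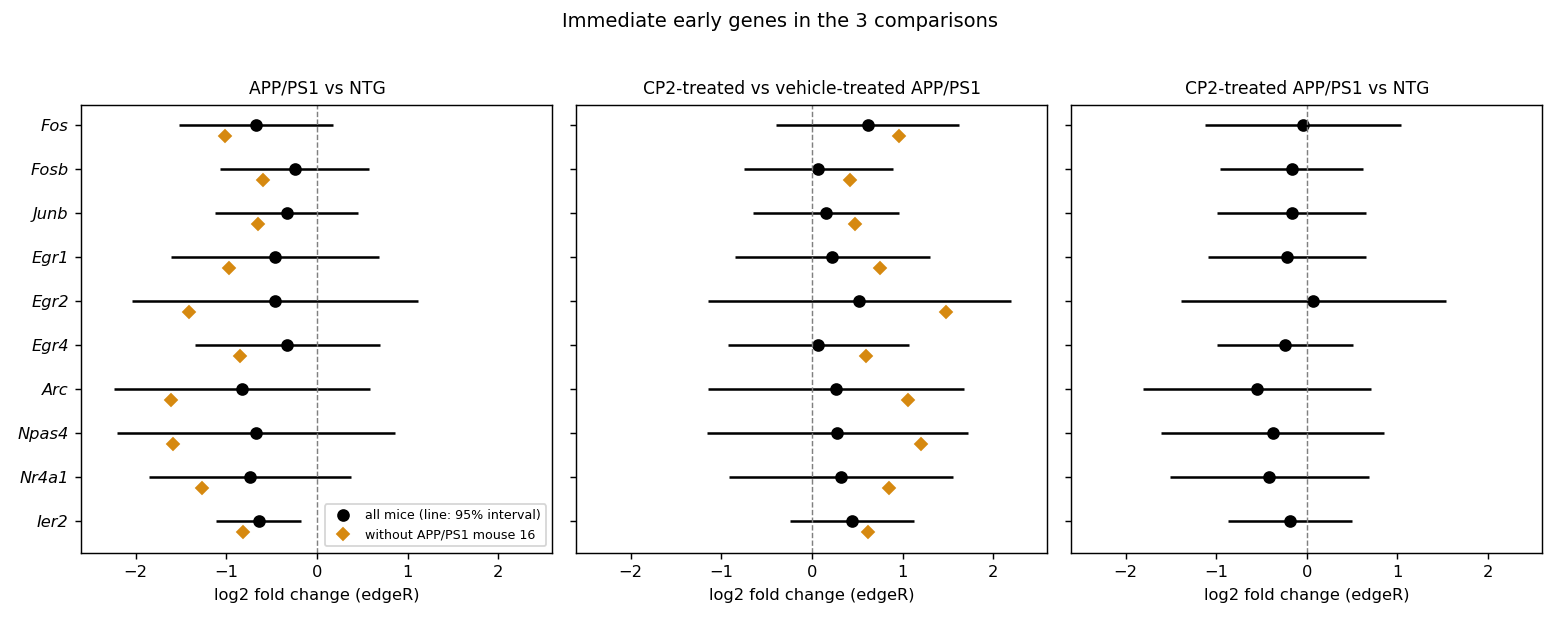
Fitted log2 fold change of each gene in the 3 comparisons (black points, lines are 95% intervals), and the same without APP/PS1 mouse 16 (orange diamonds). With all mice, only the interval of Ier2 in APP/PS1 against NTG mice excludes 0, and the diamonds are further from 0 than the points in both comparisons that include mouse 16.

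The second comparison, within APP/PS1 mice, of CP2 with vehicle, asks what the treatment changes within the genotype, and it shares the 5 vehicle-treated APP/PS1 mice with the first. All 10 point estimates were above 0, from 0.07 to 0.62 with a median of 0.27 (52.5% of all genes were below 0), and 0 of 10 genes passed either the adjusted or the unadjusted threshold, by edgeR and by DESeq2. Of all 16407 genes tested, 2.88% were higher at the unadjusted threshold and 0% at the adjusted one. The ranges of the groups overlapped for all 10, and 0.549% of all genes were higher with no overlap. Fos was 21.3 ± 16.99 CPM with CP2 and 13.9 ± 6.79 CPM with vehicle (n = 5 each), a log2 fold change of 0.62 (95% interval -0.39 to 1.63, adjusted p = 0.797). Ier2 was 6.65 ± 3.41 and 4.89 ± 1.38 CPM, a log2 fold change of 0.45 (95% interval -0.24 to 1.13, adjusted p = 0.782). The intervals of the other 8 genes reached from -1.15 (Egr2 and Npas4) up to 2.20 (Egr2), so neither a fall nor a rise of more than 2-fold was excluded for Egr2, Npas4 or Arc (-1.15 to 1.68).

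Single mice decided the sign here. With all mice kept, the ribosomal RNA-like covariate moved the median to 0.92, with 3 members at an unadjusted p under 0.05 where 1.92% of all genes were higher, and quality weights moved it to 0.42 with 0 such members and 0 at the adjusted threshold. Without CP2-treated mouse 25, 9 of the 10 log2 fold changes were below 0, with a median of -0.30, and only Ier2 stayed above 0. Leaving out vehicle-treated mouse 18 put 2 of the 10 below 0, as did leaving out mouse 19. Without vehicle-treated mouse 16 all 10 were above 0 with a median of 0.80, and Npas4 (1.21, SE 0.50) and Egr2 (1.48, SE 0.66) had an unadjusted p under 0.05, where 4.25% of all genes were higher at that threshold. Their edgeR adjusted p-values were 0.503 and 0.521. Egr2, at 0.854 CPM in vehicle-treated mouse 19, passed the filter on level only through the CP2-treated group. With no filter and all mice kept its log2 fold change was 0.52.

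In the third comparison, CP2-treated APP/PS1 against NTG mice, which shares the mice of each of the others, 9 of the 10 genes had log2 fold changes below 0, beside 50.6% of all genes, and Egr2 was at 0.07. The median was -0.20, and 0 of 10 genes passed the adjusted or the unadjusted threshold by edgeR or DESeq2. Of 16416 genes tested, 1.46% were lower at the adjusted threshold and 8.59% at the unadjusted one, and 3.61% were lower with no overlap between the groups, which overlapped for all 10 members. Arc was 91.1 ± 82.5 CPM in CP2-treated and 135 ± 83.2 CPM in NTG mice, a log2 fold change of -0.55 (95% interval -1.81 to 0.71, adjusted p = 0.652). Nr4a1 was at -0.41 (-1.51 to 0.68), Npas4 at -0.38 (-1.61 to 0.85), Egr4 at -0.25 (-0.998 to 0.51) and Fos at -0.05 (-1.13 to 1.03). Ier2 was at -0.19 (-0.87 to 0.50), Egr1 at -0.22 (-1.10 to 0.65), Fosb at -0.17 (-0.96 to 0.62) and Junb at -0.17 (-0.99 to 0.66). Quality weights moved the median to -0.51, and it was -0.18 with the ribosomal RNA-like covariate. Without mouse 25 all 10 were below 0, with a median of -0.66, and 5 had an unadjusted p under 0.05, where 7.15% of all genes were lower at that threshold. Without NTG mouse 8 the median was -0.02 and 5 genes were on each side of 0.

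Genes whose level most resembled that of the 10 were found by Pearson's r over 14 mice between log2 CPM and the mean standardized log2 CPM of the members. The 5 with the highest r were 1700016P03Rik (0.976, Spearman's rho 0.965), Dusp1 (0.975), Sik1 (0.966), Dusp6 (0.924) and Tiparp (0.918), and over the 10 mice other than 8, 9, 16 and 25 their r was 0.836, 0.908, 0.885, 0.789 and 0.650. Dusp1 and Dusp6 encode phosphatases that switch off MAP kinases, and Sik1 a kinase that holds back CREB co-activators. Dusp1 ranged from 11.4 CPM in mouse 19 to 49.5 CPM in mouse 25. None of the 5 passed the adjusted threshold in any of the 3 comparisons by edgeR, and 0 of them had an unadjusted p under 0.05.

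The first of them, 1700016P03Rik (chr11:75172560-75177633), is a non-coding transcript that spans the hairpins of miR-212 and miR-132, microRNAs induced by neuronal activity through CREB. It ranged from 5.12 CPM in mouse 19 to 11.4 CPM in mouse 25. Its 3′ part overlaps Ovca2 on the other strand, and as reads were counted on every gene they overlapped and the strand setting is not given in the sources used here, some of its counts may belong to that neighbour. Ovca2 itself had an r of 0.907 with the members, at 1430 to 2103 counts per mouse beside 414 to 933 for 1700016P03Rik. The mature microRNAs, from RefSeq, are shown because they share a seed (bases 2 to 8, in capitals). They lie at chr11:75173443-75173464 and chr11:75173723-75173744 on the plus strand, and were not themselves measured in these libraries.
mmu-miR-212-3p: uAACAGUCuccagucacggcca
mmu-miR-132-3p: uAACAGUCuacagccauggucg

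Other parts of the activity-dependent programme were followed with 4 further lists, and resemblance to the 10 genes was partial. Of 20 other immediate early transcription regulators, 6 (30%) had r above 0.8 with the members, as did 6 of 21 immediate early signalling genes (28.6%), 1 of 10 activity-regulated synaptic and secreted genes (10%) and 0 of 27 genes that carry signals from synapse to nucleus, beside 0.406% of 16511 genes.

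Several genes of these lists differed between APP/PS1 and NTG mice at the adjusted threshold, in both directions. The 6 genes named here had pooled SDs of log2 CPM within groups from 0.21 (Bdnf) to 0.31 (Atf3), against 0.50 or more for the members. They were named because they passed this threshold, which favours genes with a small spread, so the difference does not describe their lists. Btg2, another of the transcription regulators, had a pooled SD of 0.57. Of the 20 transcription regulators, 2 rose and 3 fell, with a median log2 fold change of -0.14. Over all genes tested, 4.34% rose and 1.34% fell at this threshold. Atf3, a stress-induced factor, rose from 0.856 ± 0.116 to 3.22 ± 0.601 CPM (log2 fold change 1.92, SE 0.17, edgeR adjusted p = 0.000229), and Maff rose by 0.95 (SE 0.12, adjusted p = 0.00149). Below 1 CPM on average in NTG mice, Atf3 passed the filter on level only through the APP/PS1 group. At least 2 genes of the list rose under every alternative, that with no filter included. Nr4a2, a nuclear receptor of the same family as Nr4a1, fell from 49.3 ± 6.12 to 31.8 ± 5.23 CPM (log2 fold change -0.63, SE 0.12, adjusted p = 0.0143). Its interval, -0.90 to -0.35, lay within that of Nr4a1. Of the 21 signalling genes, Zfp36, which promotes decay of short-lived mRNAs, rose (1.10, SE 0.10, adjusted p = 0.000294) and Dusp4, a MAP kinase phosphatase, fell (-0.84, SE 0.19, adjusted p = 0.0271), with a list median of -0.08. Of the 10 synaptic and secreted genes 1 fell, Bdnf, the neurotrophin, from 24.6 ± 4.42 to 15.9 ± 2.598 CPM (log2 fold change -0.62, SE 0.14, adjusted p = 0.0331), with a list median of -0.23. Of the 27 synapse-to-nucleus genes 0 passed by edgeR and 2, both lower, by DESeq2, and 2 had an unadjusted edgeR p under 0.05, Camkk1 (-0.30, adjusted p = 0.0588) and Hdac5 (-0.20, adjusted p = 0.0843), and the median was -0.02.

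With the ribosomal RNA-like covariate and all mice kept, 0 genes of these lists fell at the adjusted threshold. Without mouse 16, the adjusted counts were 2 higher and 3 lower, 1 higher and 3 lower, 0 higher and 2 lower, and 0 for the 4 lists in that order. The 3 falls among the transcription regulators were lost without NTG mouse 9, and became 1 without NTG mouse 8 or without APP/PS1 mouse 18, 19 or 20. The fall of Dusp4 and that of Bdnf were each lost, with no other gene of their list passing, without NTG mouse 8, 9 or 10 and without APP/PS1 mouse 19 or 20, and that of Bdnf also without mouse 18. Microglia markers moved with the same contrast, with 6 of 6 higher at the adjusted threshold and summed levels of 227 to 246 CPM in NTG and 391.8 to 494 CPM in APP/PS1 mice. All 5 dentate gyrus markers were below 0 (median -1.03), of which 1, Tdo2 (log2 fold change -1.17, adjusted p = 0.0144), passed the adjusted and 3 the unadjusted threshold. Without mouse 16 their median was -0.76, with 3 at the adjusted and 5 at the unadjusted threshold. The 6 pan-neuronal markers had 0 calls by edgeR, at either threshold, and summed to 4526 to 5086 CPM in NTG and 4245 to 5128 CPM in APP/PS1 mice. The part of these cell types in the changes above was not tested.

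Between APP/PS1 mice given CP2 and those given vehicle, 0 genes of these 4 lists passed the adjusted threshold by edgeR or by DESeq2. At the unadjusted one 2 transcription regulators were higher, Nr4a2 (0.40, SE 0.16, adjusted p = 0.744) and Nr4a3 (0.44, SE 0.18, adjusted p = 0.744), and 1 synapse-to-nucleus gene was, Hdac4 (0.10, adjusted p = 0.744), followed by Hdac5 (0.10, adjusted p = 0.744). The signalling and the synaptic and secreted genes had 0, the smallest p-values being those of Sgk1 (-0.51, adjusted p = 0.749) and Rgs2 (-0.31, adjusted p = 0.789), and of Bdnf (0.20, adjusted p = 0.749) and Inhba (-0.43, adjusted p = 0.768). Without mouse 16 Nr4a2 was at 0.34 (adjusted p = 0.522) and Nr4a3 at 0.39 (adjusted p = 0.531), and neither passed the unadjusted threshold. Striatum markers moved with this contrast through mouse 16, with 8 of 8 lower in CP2-treated mice and a median of -1.53, and a median of 0.27 without that mouse. Thalamus markers were higher in 7 of 7 (median 0.59, 3 at the unadjusted threshold, and 0.47 with 4 without mouse 16), and dentate gyrus markers in 5 of 5 (median 0.40, 1 at the unadjusted threshold, and 0.22 with 3 without mouse 16), with 0 adjusted calls by edgeR. The part of these regions was not tested.

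When APP/PS1 mice given CP2 were compared with NTG mice, 3 transcription regulators rose, Atf3 (1.61, adjusted p = 0.00152), Maff (0.70, adjusted p = 0.0372) and Klf6 (0.29, adjusted p = 0.0441), and 0 fell by edgeR or DESeq2, with 3 lower at the unadjusted threshold. Atf3 here passed the filter on level only through the CP2-treated group. Over all genes tested 4.56% rose and 1.46% fell. Zfp36 rose (0.90, adjusted p = 0.0256) and Dusp4 fell (-0.63, adjusted p = 0.0142) among the signalling genes. Nrn1, which encodes neuritin, fell from 138 ± 12.3 to 111 ± 7.97 CPM (log2 fold change -0.31, adjusted p = 0.0212), and Bdnf fell to 18.2 ± 1.60 CPM (-0.42, adjusted p = 0.0458). Of the synapse-to-nucleus genes 0 passed by edgeR or DESeq2 (4 were lower without NTG mouse 7), and 1 was higher and 2 lower at the unadjusted threshold, with Ep300 (0.14, adjusted p = 0.149) and Camkk1 (-0.20, adjusted p = 0.161) having the smallest p-values. Both falls of the synaptic and secreted genes were lost without NTG mouse 8 or 9 or without CP2-treated mouse 21 or 22. That of Dusp4 was lost without NTG mouse 9, the rise of Zfp36 without NTG mouse 8, 9 or 10 or CP2-treated mouse 21 or 22, and 1 transcription regulator rose in place of 3 without NTG mouse 7, 9 or 10 or CP2-treated mouse 21, 22 or 25. The microglia markers were again higher, with 4 of 6 called and sums of 316 to 470 CPM in CP2-treated mice. With all mice kept, both falls of the synaptic and secreted genes and that of Dusp4 were lost with all 3 groups in one fit, and 1 of those 2 falls was lost with a minimum of 10 counts. With the ribosomal RNA-like covariate the rise of Zfp36 was lost and 1 transcription regulator rose in place of 3. Dentate gyrus markers were below 0 in 5 of 5 (median -0.43, 2 adjusted and 4 unadjusted calls), and 3 of 6 endothelium markers rose. The part of these cell types and regions was not tested.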

How the data were processed

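RNA was sequenced from 14 mice in 3 groups (4, 5 and 5). The authors prepared TruSeq v2 libraries, aligned paired reads to mm10 with TopHat2 and counted reads per Ensembl gene by featureCounts, a read counting on each gene it overlapped (the versions and strand setting are not given in the sources used here). The deposited table holds raw counts per gene and RPKM values that the authors computed; RPKM served only for levels across genes. The labels name no batch. Each comparison was fitted on its 2 groups with edgeR 4.0.16 in R 4.3.3 (TMM, quasi-likelihood, over all genes with a robust CPM above 1 in every mouse of 1 group or the other), and p-values were Benjamini-Hochberg adjusted over all genes tested, with a threshold of 0.05. The study's own script uses DESeq2 with this filter. CPM values use TMM factors over the 14 libraries, log2 CPM a prior count of 2. Total counts, from 70548781 to 106235625, bound counting error only. The 26 pairs of replicates all differed beyond sampling noise (lowest chi-square per degree of freedom 10.6). Mice are separate animals. The procedure was tested on simulated data drawn with the spread typical of genes at each level. That test therefore does not cover genes as variable as the members. Alternatives were DESeq2 1.42.0, RLE and upper-quartile factors, no filter, a minimum of 10 reads per mouse, a joint fit of the 3 groups, limma-voom (limma 3.58.1) with quality weights, the log2 share of 2 ribosomal RNA-like genes (Yam1 and AY036118) as a covariate, and each mouse left out. The same alternatives for the other lists were added after the data were seen. Python 3.11.15 with pandas 2.3.3 and matplotlib 3.10.9 handled sequences and figures.

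All 10 members are named in every comparison. Of the 19 other lists (4 activity-related, 15 of region and cell type markers), counts are given and, for activity-related lists, up to 3 genes by smallest p among those with an adjusted p under 0.05, or else the 2 with the smallest p; Tdo2 was named because it is the 1 dentate gyrus marker called. The 5 genes most like the members were those with the highest r. The members and lists were chosen with earlier results of these data known.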

Additional observations from a re-analysis of the deposited data

Results flagged for a closer look

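Fosb in CP2-treated mouse 25 was 17.96 CPM and stood apart from the 4 other mice of its group, at 6.17 to 7.60 CPM, with a gap to the nearest of 0.805 of the group's whole range on the log2 CPM scale. It was the only 1 of 30 sets (10 genes in 3 groups) past Dixon's 95% critical value, 0.71 for 5 samples, where chance gives about 1.5.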

How the results depend on the processing

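No paired analysis was possible because the groups share no replicate numbers. In APP/PS1 against NTG mice the number of members with an adjusted p under 0.05 was 0 by edgeR. It was 1 with DESeq2 (3.47% of all genes lower at that threshold) and 1 with quality weights (2.77%). It ranged from 0 to 1 as each mouse was left out. The number with an unadjusted p under 0.05 was 1, 0 with all 3 groups in one fit and 7 with quality weights, and ranged from 1 to 9 (without mouse 16). Within APP/PS1 mice, for CP2 against vehicle, it was 0, 3 with the ribosomal RNA-like covariate (1.92% of all genes higher), and 0 to 2 as mice were left out, and in CP2-treated APP/PS1 against NTG mice it was 0, and 0 to 5. The median log2 fold change of the 10 genes ranged, as mice were left out, from -0.99 to -0.29, from -0.30 to 0.80 and from -0.66 to -0.02 in the 3 comparisons. With all mice kept it reached -0.97 and 0.92 in the first 2 with the ribosomal RNA-like covariate, and -0.51 in the third with quality weights. The cause of these changes was not tested.

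Signs that turned as mice were left out had these ranges of log2 fold change. For CP2 against vehicle they were Fos -0.0054 to 0.96, Fosb -0.34 to 0.42, Junb -0.25 to 0.48, Egr1 -0.21 to 0.75, Egr2 -0.45 to 1.48, Egr4 -0.32 to 0.60, Arc -0.48 to 1.06, Npas4 -0.29 to 1.21 and Nr4a1 -0.37 to 0.85. Mouse 25 gave each lowest value and mouse 16 each highest, and Fosb and Egr4 each turned in 3 of these fits. For CP2-treated APP/PS1 against NTG mice they were Fos -0.66 to 0.24, Fosb -0.57 to 0.024, Junb -0.57 to 0.041, Egr1 -0.65 to 0.039 and Egr2 -0.90 to 0.40, and Egr2 was at -0.55 with quality weights. In APP/PS1 against NTG mice all 10 signs were the same under every alternative run.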

Other observations

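The other region and cell type markers, as context for the 10 genes, gave these counts by edgeR at an adjusted p under 0.05 in APP/PS1 against NTG mice. Blood markers had 2 of 5 higher (median log2 fold change 1.06), endothelium 1 of 6 higher (0.12) and astrocytes 1 of 6 lower (-0.03). Excitatory (median -0.06) and inhibitory (0.01) neuron, cortical layer (0.00), oligodendrocyte (0.03), thalamus (-0.51) and striatum (1.92) markers had 0 called, as did the 3 of 4 hippocampal CA markers, 4 of 5 choroid plexus markers and 1 of 5 hypothalamus markers that were tested. At the unadjusted threshold, of these 0-call lists, 1 excitatory, 1 thalamus and 1 hippocampal CA marker were lower, 1 inhibitory marker was lower and 1 higher, and 2 striatum markers and the hypothalamus marker were higher. DESeq2 calls were not counted for these lists.

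Summed levels of 2 further lists differed widely between mice. Hypothalamus markers reached 99.96 CPM in CP2-treated mouse 23 and 51.2 CPM in CP2-treated mouse 22, beside 5.36 to 7.03 CPM in the other 3 of that group, 2.02 to 23.4 CPM in NTG and 4.14 to 15.1 CPM in vehicle-treated APP/PS1 mice, and choroid plexus markers ranged from 21.4 to 1356 CPM over all mice. Mouse 22 was the next highest mouse after 8, 9, 16 and 25 for several of the immediate early genes, and above mouse 16 for Ier2. Mouse 23, with the higher hypothalamus sum, was the lowest of its group for 4 of the 10 genes. The part of these regions in the levels of the genes was not tested.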
